A study of Mus musculus with 4 samples.

Results

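The cytosolic ribosomal proteins were examined in the livers of fasted mice as 105 probe sets of 49 genes, out of 45101 probe sets on the array. A probe set is a group of short probes that together read 1 transcript. Members were taken by name alone: every probe set with exactly 1 gene symbol of the Rpl or Rps series, including Rplp0, Rplp2 and Rpsa. Symbols of S6 kinases, binding proteins and pseudogenes were left out. A further 110 probe sets carried several symbols, at least 1 of them a ribosomal protein, and are not members. Of the members, 57 belonged to 23 genes of the small subunit (Rps and Rpsa) and 48 to 26 genes of the large subunit (Rpl and Rplp).

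The samples were livers of 4 male C57BL/6J mice, aged 12 weeks, kept on normal chow and then housed singly without food for 24 h. There were 2 wild-type mice and 2 mice labelled Cnot3+/-, each read on 1 one-colour array. The labels number the replicates, so the arrays are named wild-type 1 and 2 and Cnot3+/- 1 and 2. The comparison asks which liver transcripts differ with 1 altered copy of Cnot3, whose product is a subunit of the CCR4-NOT complex that shortens mRNA poly(A) tails. The labels do not describe the allele, and all 4 mice shared strain, sex, age and fast. Values are log2 expression values, so a difference of 1 is a factor of 2, and 2 arrays per group limit the precision of each value.

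Each ribosome joins a small subunit, which decodes the mRNA, to a large subunit, which forms the peptide bond. Nearly all of their proteins are needed in equal number, and their mRNAs are among the most abundant and stable of the cell. Most of these mRNAs begin with a run of pyrimidines, the 5′ terminal oligopyrimidine (TOP) motif, through which the TOR kinase and the protein LARP1 hold back their translation when nutrients are scarce, as in fasting.

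The start regions of the genes were searched for this motif in the reference. RefSeq start regions of assembly GRCm38.p6, which run from 250 bases before to 50 bases after each annotated start, matched 43 of the 49 genes with 51 regions. A C at the annotated start followed by at least 4 further pyrimidines stood in 8 of the 51 regions (15.7%), against 2.51% of all 32851 regions. A looser search on the transcript strand, for a C followed by at least 5 further pyrimidines and lying within 25 bases of the annotated start, matched 33 of 51 (64.7%), against 37.6% of all regions. The motif CCGGAAG, the core recognised by ETS factors, stood on either strand in 21 of the 51 regions (41.2%), against 8.86% of all. TATAAA stood on either strand in 6 (11.8%), against 13.6% of all. These are descriptions of letters in the reference and were not tested.

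The following start regions, of genes whose values are given further on, are examples of the tract and its position. Each gives the 20 bases before and the first 20 bases from the annotated start on the strand of the gene, with the pyrimidine tract of the looser search in capitals.
Rps9 (chr7:3704021-3704060, plus strand): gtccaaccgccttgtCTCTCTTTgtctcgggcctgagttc
Rps6 (chr4:86857348-86857387, minus strand): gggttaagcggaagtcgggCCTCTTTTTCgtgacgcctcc
Rps10 (chr17:27635225-27635264, minus strand): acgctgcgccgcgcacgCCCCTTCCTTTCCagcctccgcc
Rps24 (chr14:24490658-24490697, plus strand): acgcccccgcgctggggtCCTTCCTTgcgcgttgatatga
Rpl12 (chr2:32961692-32961731, plus strand): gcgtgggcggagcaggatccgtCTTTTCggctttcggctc
Rpl35 (chr2:39005112-39005151, minus strand): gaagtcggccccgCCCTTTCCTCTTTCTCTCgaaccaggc
Rpl22l1 (chr3:28805488-28805527, plus strand): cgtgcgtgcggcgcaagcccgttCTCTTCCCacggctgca
Of the 2 regions of Rps27l, 1 had a tract that began at position -22, outside the stretch of 20 bases, and the other had none, so neither is printed. In Rps6, the tract spanned the annotated start, and in Rpl22l1 it began 3 bases after it. The next 2 regions are shown for contrast, since the looser search matched nothing there.
Rps3 (chr7:99483690-99483729, minus strand): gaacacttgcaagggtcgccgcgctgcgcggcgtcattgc
Rplp0 (chr5:115559447-115559486, plus strand): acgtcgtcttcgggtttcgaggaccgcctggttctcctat
Annotated starts can lie some bases from those used in a tissue, so a missing match says only that these letters are not in this window.

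The arrays had median log2 values between 4.62 and 4.66 over all probe sets. Cnot3 itself did not check the labels: its brighter probe set read 7.48 and 8.14 in the wild-type mice and 7.70 and 7.86 in mice labelled Cnot3+/- (difference -0.03, SE 0.25). The dimmer one, 1441465_at, read 5.33 and 5.52 in the wild-type mice and 5.54 on both Cnot3+/- arrays, higher there without overlap (difference 0.11, SE 0.14, limma adjusted p = 1). Where their probes lie relative to the altered part is not known, so all directions below depend on the genotypes as labelled. Among the 27060 probe sets left after the dimmest 40% (mean log2 value below 4.06) were set aside, 723 lay at least 2-fold apart between the Cnot3+/- arrays and 166 between the wild-type arrays. The 11 macrophage markers past this filter averaged 7.87 and 8.12 in the wild-type mice, 7.64 on Cnot3+/- 1 and 9.83 on Cnot3+/- 2. The 5 T and NK cell markers past it, of 8 listed, averaged 4.94 to 5.02 in the wild-type mice, 4.84 on Cnot3+/- 1 and 6.85 on Cnot3+/- 2. The 6 hepatocyte markers averaged 13.22 and 13.39 in the wild-type mice and 13.49 and 13.37 in Cnot3+/-, high on every array.

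Ribosomal protein mRNAs stood slightly lower in the arrays labelled Cnot3+/-, by less than the gap between the wild-type mice. Past the filter were 92 member probe sets of 46 genes, and 80 of them had a lower mean in Cnot3+/- while 12 had a higher one. Over all probe sets tested, 51.4% were lower. The median difference of the members was -0.11 on the log2 scale, a factor of 1.08, against -0.0058 over all probe sets tested. The quartiles of the members were -0.17 and -0.06, and 81 of the 92 lay within 0.25 of 0, with a median SE of 0.16. In bulk tissue, fewer cells of a type and less RNA per cell cannot be told apart.

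None of the members passed the test. In limma's moderated linear model with Benjamini-Hochberg adjustment over the 27060 probe sets, 0 of 92 had an adjusted p under 0.05, and the smallest adjusted p was 1. Over all probe sets 2 passed as higher (0.00739%) and 0 as lower (0%). At an unadjusted p under 0.05, 1 member was lower, against 438 of all probe sets (1.62%), and 0 members were higher, against 569 (2.10%). The groups did not overlap, with both Cnot3+/- arrays below both wild-type arrays, in 20 of 92 members (21.7%), against 16.5% of all probe sets. In the opposite direction 2 members did not overlap, against 14.5% of all.

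The arrays did not order by genotype. Relative to the wild-type mean of each probe set, the members had a median of 0.11 on wild-type 1, -0.11 on wild-type 2, -0.04 on Cnot3+/- 1 and -0.19 on Cnot3+/- 2. Wild-type 1 was thus the high array and Cnot3+/- 1 lay between the wild-type mice, so the groups overlapped. Wild-type 1 had the highest value of the 4 arrays in 80 of 92 members, against 28.6% of all probe sets, and Cnot3+/- 2 the lowest in 52, against 28.1%. In 39 members the arrays ran from high to low as wild-type 1, Cnot3+/- 1, wild-type 2, Cnot3+/- 2, an order that 7.68% of all probe sets had.

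**Figure D1:**
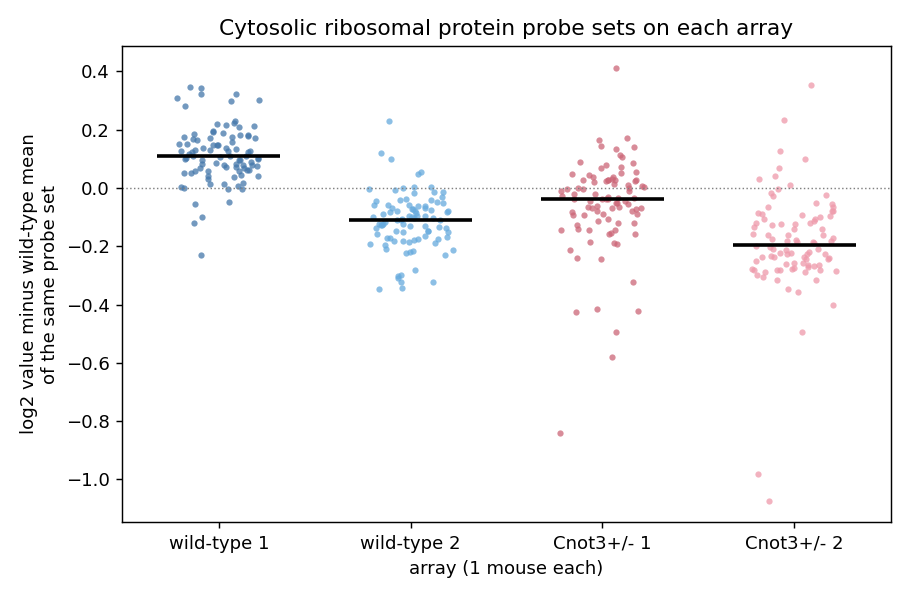
Log2 value minus the wild-type mean of the same probe set (vertical axis) for the 92 ribosomal protein probe sets on each of the 4 arrays (horizontal axis). Each point is 1 probe set and each black bar the median, at 0.11, -0.11, -0.04 and -0.19 from left to right: wild-type 1 stands above the other arrays, and Cnot3+/- 1 lies between the wild-type arrays.

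The wild-type gap was the larger quantity for most members. In 72 of 92 the wild-type arrays lay further apart than the genotype means did, against 62.2% of all probe sets, and the median size was 0.23 for the former and 0.11 for the latter. Wild-type 2 was below wild-type 1 in 85 members (47.8% of all probe sets), and Cnot3+/- 2 was below Cnot3+/- 1 in 74 (52.6% of all). Set against wild-type 2 alone, the Cnot3+/- arrays differed by a median of -0.0016, with 48 of 92 members lower. Set against wild-type 1 alone, the median was -0.25 with 85 lower. Without Cnot3+/- 2 the median was -0.04 with 59 lower, and without Cnot3+/- 1 it was -0.19 with 84 lower.

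The same spread was seen in probe sets outside the name rule. Of the 101 probe sets past the filter with several symbols, at least 1 of them ribosomal, 94 were lower, with a median of -0.10. Their medians by array were 0.12, -0.12, -0.02 and -0.20 in the same array order. These probe sets read the same family in the same 4 RNA samples, and so repeat the measurement without adding animals. The _x_at and _s_at members, whose probes can match several transcripts, had a median of -0.11 over 41 probe sets, and the other 51 members had -0.10. The median was -0.11 for the 68 members of mean log2 value above 10 and -0.09 for the 24 dimmer ones. All 1903 probe sets of mean above 10, a limit chosen after the values were seen, had a median of -0.02.

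Both subunits had medians near that of all members. In the small subunit 40 of 49 probe sets were lower, with a median difference of -0.12, and in the large subunit 40 of 43 were lower, with -0.10. Of the small-subunit probe sets 15 were lower without overlap, and of the large-subunit ones 5, while 16.5% of all probe sets were. Several of these probe sets read the same gene. Taken 1 probe set per gene, 5 of 22 small-subunit and 3 of 24 large-subunit genes were lower without overlap, against 17.4% of all genes. The medians by array for the large subunit were 0.14, -0.14, -0.03 and -0.19, and for the small subunit 0.10, -0.10, -0.06 and -0.20. No test was made between the subunits.

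**Figure D2:**
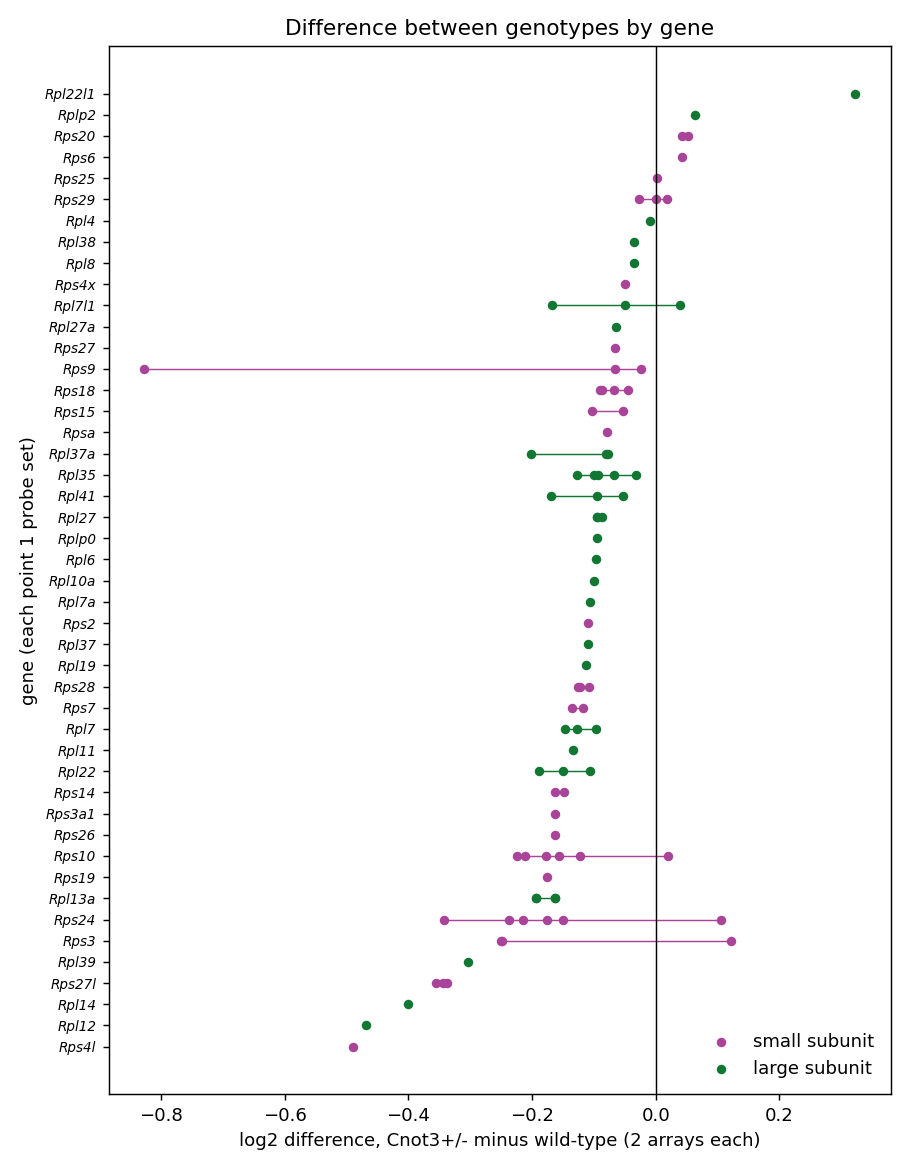
Log2 difference of the Cnot3+/- mean from the wild-type mean, with 2 arrays per group (horizontal axis), for the 46 ribosomal protein genes past the filter (vertical axis). Each point is 1 probe set and a line joins probe sets of 1 gene, with purple for the small and green for the large subunit: most points lie between -0.25 and 0, Rpl22l1 lies at 0.32 and 1 of the 3 Rps9 probe sets at -0.83.

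Rps9 gave the largest difference, on 1 of its 3 probe sets. Its product sits in the body of the small subunit, where it binds ribosomal RNA early in assembly. Probe set 1434624_x_at stood at 11.52 on wild-type 1, 11.07 on wild-type 2, 10.71 on Cnot3+/- 1 and 10.22 on Cnot3+/- 2. Both Cnot3+/- values were below both wild-type values. The difference was -0.83 (SE 0.24, 95% confidence interval -1.43 to -0.22, limma adjusted p = 1, unadjusted p = 0.0165), which makes the wild-type mean 1.77-fold the Cnot3+/- mean, and it ran from -1.07 to -0.58 with any 1 array left out.

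The other Rps9 probe sets did not share it. Probe set 1433689_s_at stood at 12.23 and 11.97 in the wild-type mice and at 12.06 and 12.01 in Cnot3+/-, a difference of -0.07 (SE 0.15). The dim 1426958_at stood at 5.03 and 4.88 in the wild-type mice and at 4.86 and 4.99 in Cnot3+/-, a difference of -0.02 (SE 0.15). On these the groups overlapped, so the 3 probe sets of Rps9 disagree in size. Rps9 is the member nearest to Cnot3: both are on chromosome 7, and Rps9 follows 6 genes away in the annotation of GRCm38.p6. No other member lies within 100 genes of it. Whether sequence around the altered allele or probes shared with another transcript bear on this probe set was not tested.

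Rps27l stood lower in both Cnot3+/- mice on each of its 3 probe sets. It encodes a close relative of Rps27, known as a target of p53. Probe set 1450925_a_at read 12.59 and 12.44 in the wild-type mice against 12.09 and 12.23 in Cnot3+/- (difference -0.35, SE 0.15). Probe set 1435429_x_at read 12.22 and 12.01 against 11.69 and 11.85 (difference -0.34, SE 0.15), and 1423254_x_at read 12.24 and 11.99 against 11.69 and 11.85 (difference -0.34, SE 0.16). The groups did not overlap on any of them, and Cnot3+/- 1 was the lowest array, unlike in most members. All 3 probe sets of Rps28 were also lower without overlap (differences -0.13 to -0.11), against 16.5% of all probe sets. With any 1 array left out the difference of 1450925_a_at ran from -0.43 to -0.28, and its limma adjusted p was 1. The partner Rps27 was read by a much dimmer probe set, at 6.42 and 6.51 in the wild-type mice and 6.51 and 6.29 in Cnot3+/-. Its difference was -0.07 (SE 0.15). The Rps27l probe sets 1435429_x_at and 1423254_x_at, whose probes can match several transcripts, read nearly the same values as each other.

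Rpl22l1 was the member that stood highest in Cnot3+/-. It encodes a paralog of Rpl22, an RNA-binding protein on the outer face of the large subunit, and can take its place in the ribosome. Rpl22l1 read 10.35 on wild-type 1, 9.97 on wild-type 2, 10.58 on Cnot3+/- 1 and 10.39 on Cnot3+/- 2. The groups did not overlap, but Cnot3+/- 2 was only just above wild-type 1. The difference was 0.32 (SE 0.18, 95% confidence interval -0.14 to 0.79, limma adjusted p = 1), and it was 0.13 when wild-type 2 was left out and 0.51 when wild-type 1 was. The 3 probe sets of Rpl22 differed by -0.19 (SE 0.19), -0.15 (SE 0.16) and -0.11 (SE 0.15). Its probe set 1416603_at read 10.54 and 10.33 in the wild-type mice and 10.40 and 10.17 in Cnot3+/-, with overlap.

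**Figure D3:**
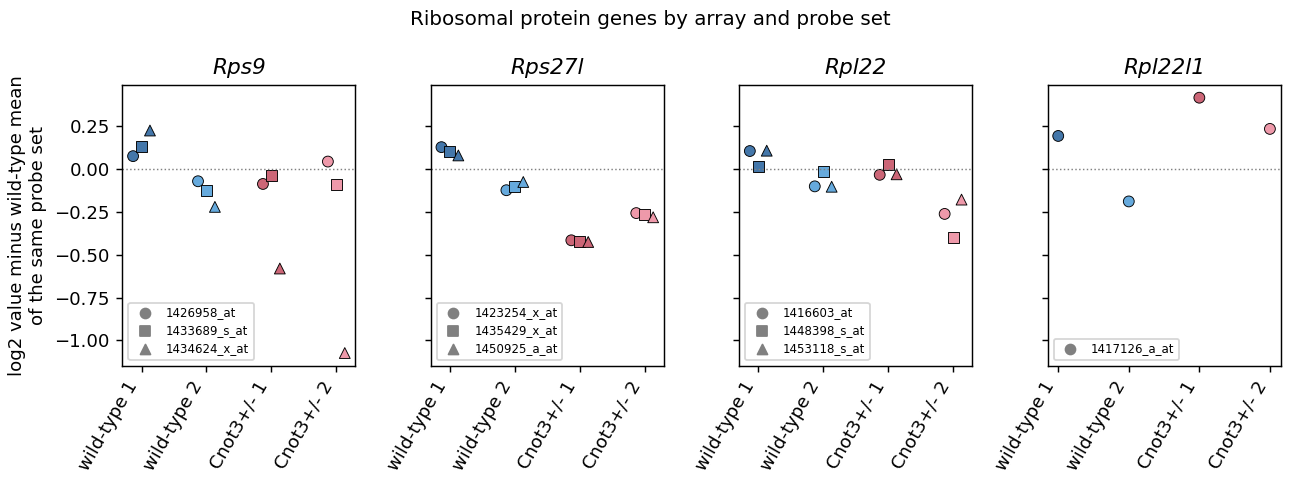
Log2 value minus the wild-type mean of the same probe set (vertical axis) on the 4 arrays (horizontal axis) for Rps9, Rps27l, Rpl22 and Rpl22l1, with 1 marker shape per probe set. A single Rps9 probe set stands 0.83 below wild-type on average while the other 2 stay near 0, the 3 Rps27l probe sets coincide below wild-type in both Cnot3+/- arrays, and Rpl22l1 stands above its wild-type mean there.

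Of the other paralogs, Rps4l had the largest difference. Rps4l, a rodent relative of the X-linked Rps4x, read 8.74 and 8.37 in the wild-type mice, 8.56 on Cnot3+/- 1 and 7.58 on Cnot3+/- 2. It differed by -0.49 (SE 0.35), but by 0.0013 when Cnot3+/- 2 was left out and by -0.98 when Cnot3+/- 1 was. Rps4x differed by -0.05 (SE 0.14). The 3 probe sets of Rpl7l1 differed by -0.17 (SE 0.14), -0.05 (SE 0.15) and 0.04 (SE 0.15), and those of its partner Rpl7 by -0.15 (SE 0.16), -0.13 (SE 0.20) and -0.10 (SE 0.18). The muscle paralog Rpl3l and the paralog Rpl39l, best known from testis, had 1 probe set each, and both were below the filter, with means of 3.46 and 2.95.

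Members in the P stalk, at the stalk base, in the 5S particle and at the exit tunnel were looked at by name. The P stalk recruits the elongation factors. Its base protein gene Rplp0 read 12.55 and 12.24 in the wild-type mice and 12.38 and 12.21 in Cnot3+/- (difference -0.10, SE 0.17). Rplp2, an outer stalk protein, read 12.01 and 11.93 in the wild-type mice and 11.97 and 12.10 in Cnot3+/- (difference 0.06, SE 0.14).

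Rpl12, whose product lies at the base of the stalk, was read by a dim probe set at 5.68 and 5.54 in the wild-type mice, 4.77 on Cnot3+/- 1 and 5.51 on Cnot3+/- 2. Rpl12 differed by -0.47 (SE 0.27), but -0.10 without Cnot3+/- 1 and -0.84 without Cnot3+/- 2. Rpl11, which with RPL5 and the 5S RNA forms the particle that binds the p53 regulator MDM2, read 12.15 and 11.82 in the wild-type mice and 11.99 and 11.71 in Cnot3+/- (difference -0.13, SE 0.19). Rpl39, whose small protein lines the exit tunnel for the growing chain, read 6.13 and 6.13 in the wild-type mice and 5.81 and 5.84 in Cnot3+/-, without overlap (difference -0.30, SE 0.13, limma adjusted p = 1). For Rpl39 both groups were tight, and the difference ran from -0.32 to -0.29 with any 1 array left out. Its probe set was dim, however, with a mean of 5.98, while 68 of the 92 members had means above 10. All 11 probe sets of the 5 genes at the tunnel or its rim were lower, with a median of -0.11, the same to 2 decimals as that of all members. In 2 of the 11, those of Rpl39 and Rpl19, the groups did not overlap, against 16.5% of all probe sets. Rpl19 read 12.34 and 12.22 in the wild-type mice and 12.16 and 12.17 in Cnot3+/- (difference -0.11, SE 0.14). The 5 probe sets of Rpl35 past the filter overlapped, with differences from -0.13 (SE 0.20) on 1434231_x_at to -0.03 (SE 0.26) on 1436840_x_at.

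In the small subunit, Rps3 and Rps24 gave probe sets of both signs. Rps3 encodes a protein at the mRNA entry channel. Its bright probe set 1435151_a_at read 12.50 and 12.37 in the wild-type mice and 12.20 and 12.18 in Cnot3+/-, without overlap (difference -0.25, SE 0.14). The dim 1447563_at also differed by -0.25 (SE 0.17), and the dim 1455600_at by 0.12 (SE 0.15). Rps24, whose human counterpart is mutated in Diamond-Blackfan anaemia, had 6 probe sets, from -0.34 (SE 0.16) on 1436500_at to 0.11 (SE 0.21) on 1455195_at. Both extremes were dim probe sets, at 4.85 and 4.82 in the wild-type mice against 4.64 and 4.34 for the former. The bright _x_at probe sets of Rps24, with means of 11.31 to 12.13, were all lower. They ranged from -0.24 (SE 0.18) on 1456628_x_at to -0.15 (SE 0.15) on 1436064_x_at.

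The remaining small-subunit genes named were closer to wild-type. Of the 6 probe sets of Rps10, which also belongs to the anaemia genes, 1439374_x_at had the largest difference (-0.22, SE 0.15). It read 10.68 and 10.48 in the wild-type mice and 10.42 and 10.29 in Cnot3+/-, without overlap. The groups also did not overlap on 1456497_x_at (difference -0.21, SE 0.16) and 1438723_a_at (difference -0.16, SE 0.15). The dim Rps10 probe set 1436384_at differed by 0.02 (SE 0.14). Rps6, the classic S6 kinase substrate, read 8.01 on wild-type 1, 7.36 on wild-type 2, 7.85 on Cnot3+/- 1 and 7.60 on Cnot3+/- 2. The wild-type arrays thus enclosed both Cnot3+/- arrays, and its difference of 0.04 (SE 0.25) turned to -0.28 without wild-type 2, to -0.08 without Cnot3+/- 1 and to -0.0036 after quantile normalization.

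Rpsa, whose protein is also known as a laminin receptor, read 11.40 and 11.33 in the wild-type mice and 11.39 and 11.18 in Cnot3+/- (difference -0.08, SE 0.15). Rps20 differed by 0.05 (SE 0.16) and 0.04 (SE 0.17) on its 2 probe sets past the filter. Rps29 differed by 0.02 (SE 0.13) on probe set 1415833_x_at, where the groups did not overlap although all 4 values lay between 12.69 and 12.72. Over the genes whose human counterparts are linked to Diamond-Blackfan anaemia, 28 of 34 probe sets were lower (82.4%), with a median of -0.12. Of all members 87.0% were lower, with a median of -0.11, and of all probe sets tested 51.4%.

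Of the 20 genes with several probe sets past the filter, 14 had all of them lower and 5 had probe sets of both signs. For none of the 5 did both signs exceed 0.3 in size. Taken 1 probe set per gene, 40 of 46 genes were lower, against 52.1% of all 13379 genes, with a median of -0.10, and 8 were lower without overlap, against 17.4% of all. That choice prefers probe sets not marked _x_at or _s_at, and so represents Rps9 and Rps24 by dim probe sets. For Rps24 this was 1455195_at, at 0.11, while its bright _x_at probe sets differed by -0.24 to -0.15. The 13 members below the filter had means from 2.65 to 3.99, and for 3 genes, Rpl3l, Rpl39l and Rps16, no probe set passed.

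Mitochondrial ribosomal proteins, which are encoded by another gene family, had a like pattern of array medians. Taken 1 probe set per gene, 65 of 76 were lower, against 52.1% of all genes, with a median difference of -0.09. In 6 of the 76 the groups did not overlap in that direction, against 17.4% of all genes. Their medians by array were 0.14 on wild-type 1, -0.14 on wild-type 2, -0.0059 on Cnot3+/- 1 and -0.19 on Cnot3+/- 2. Wild-type 1 was again the high array, the highest of the 4 in 62 of 76, against 29.8% of all genes. None of the 76 passed the test (limma adjusted), and 0 had an unadjusted p under 0.05 in either direction. The 2 ribosomal families were not tested against each other.

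In the other lists of the translation machinery the wild-type medians lay close together. The order wild-type 1, Cnot3+/- 1, wild-type 2, Cnot3+/- 2 from high to low, which 7.55% of all genes had, stood in 35 of the 76 mitochondrial ribosomal protein genes and in 7 of 27 other TOP mRNAs. It stood in 11 of 57 initiation and elongation factors, 7 of 84 biogenesis factors, 1 of 17 genes of RNA polymerase I transcription and 2 of 37 of the TOR list. These counts were not tested. Other mRNAs of the TOP class, such as those of elongation factors, had 19 of 27 genes lower, with a median of -0.05, and medians by array of 0.00014, -0.00014, 0.03 and -0.07. The largest differences among them were those of the snoRNA host gene Snhg8 at -0.30 (SE 0.17), the nucleolar chaperone gene Npm1 at -0.20 (SE 0.15), the initiation factor gene Eif3a at 0.38 (SE 0.15) and the actin-binding thymosin gene Tmsb4x at 0.42 (SE 0.53). Tmsb4x stood at 12.65 on Cnot3+/- 2 and between 10.97 and 11.43 on the other arrays. Initiation and elongation factors, taken by symbols of the Eif and Eef series, had 30 of 57 lower (median -0.02). In 15 of 57 the groups did not overlap in the higher direction, against 1886 of all 13379 genes. In 7 they did not overlap in the lower direction, against 2334 of all. By that symbol rule the list also holds Eif4a3, a helicase of the exon junction complex, and the eIF2 kinase gene Eif2ak3. Eif3a of the TOP list and Eif6 of the biogenesis list fall under it too, so some genes count in more than 1 list. The largest differences below 0 were those of Eif4a3 at -0.39 (SE 0.16) and Eif1b at -0.27 (SE 0.14). Eif4a3 had a mean of 4.07, just above the filter limit of 4.06. The largest above 0 were those of Eif2ak3 at 0.53 (SE 0.24) and the cap-binding gene Eif4e3 at 0.61 (SE 0.36).

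Ribosome biogenesis factors were nearly balanced, with 44 of 84 lower and a median of -0.0078. Rrp1b and Nop16 differed by -0.31 (SE 0.16) and -0.30 (SE 0.16), Eif6, whose protein keeps the subunits apart, by 0.23 (SE 0.16) and Rrp12 by 0.28 (SE 0.22). For RNA polymerase I and rRNA transcription 8 of 17 were lower, with a median of 0.03. Ttf1 and Taf1a differed by -0.15 (SE 0.13) and -0.11 (SE 0.18), and Taf1d and Rrn3 by 0.37 (SE 0.15) and 0.42 (SE 0.36). In the list of TOR pathway genes and TOP regulators 16 of 37 were lower, with a median of 0.05. Castor1 and Tbc1d7 differed by -0.21 (SE 0.14) and -0.20 (SE 0.19). Ddit4, a stress-induced inhibitor of TOR complex 1, differed by 1.14 (SE 0.52), at 7.96 and 7.71 in the wild-type mice, 9.79 on Cnot3+/- 1 and 8.15 on Cnot3+/- 2, and Tsc1 differed by 0.37 (SE 0.19). In each of these lists 0 genes passed the test, and 0 had an unadjusted p under 0.05 in either direction.

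**Figure D4:**
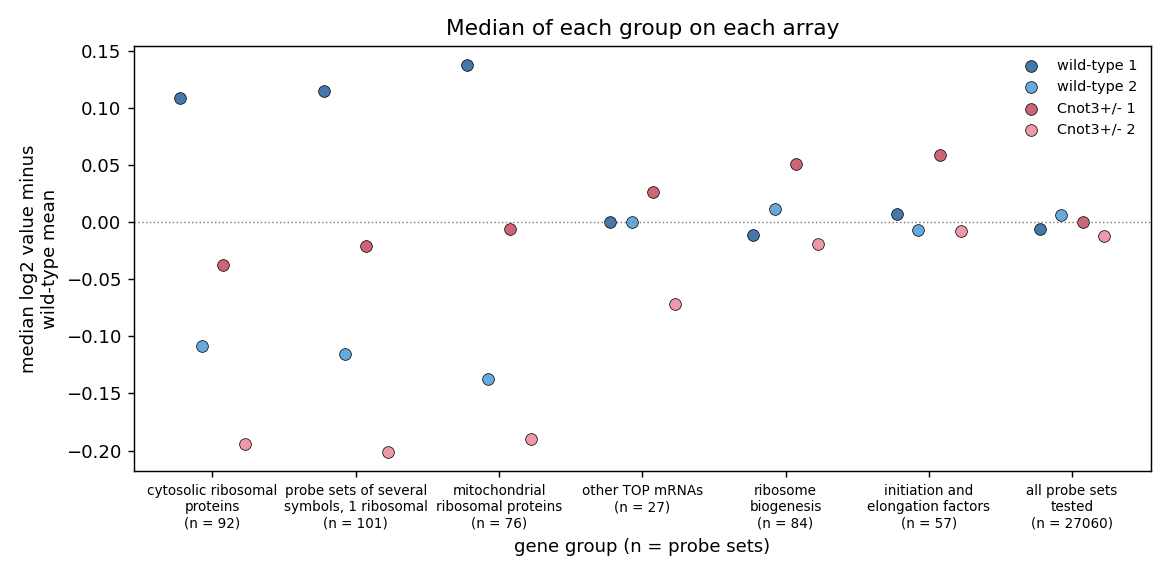
Median log2 value minus the wild-type mean (vertical axis) of each gene group on each array, with 1 colour per array and the number of probe sets under each group (horizontal axis). Cytosolic ribosomal proteins, the probe sets of several symbols and mitochondrial ribosomal proteins spread with wild-type 1 highest and Cnot3+/- 2 lowest, while in the other groups the medians of the 2 wild-type arrays lie closer to each other.

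The array order of the ribosomal proteins was also set beside the markers and controls. Macrophage and T and NK cell markers were high on Cnot3+/- 2, where ribosomal proteins were lowest. The stellate, neutrophil and cholangiocyte means were also highest there, at 8.06, 5.13 and 4.94. On the other arrays these lay at 6.99 to 7.41, 4.73 to 4.76 and 4.46 to 4.70. The B cell and erythroid means were highest on wild-type 1 (5.29) and wild-type 2 (8.09). Between the wild-type mice the macrophage and T and NK cell lists differed in direction. The macrophage mean was lower on wild-type 1, where ribosomal proteins were highest, than on wild-type 2. The T and NK cell mean was higher on wild-type 1 (5.02 against 4.94). The lowest macrophage mean was on Cnot3+/- 1. All 7 endothelial markers had a lower mean in Cnot3+/-, with a median of -0.45, 3 of them without overlap, against 17.4% of all genes. Cdh5 and Lyve1 differed by only -0.05 each (SE 0.38 and 0.28), and both were highest on Cnot3+/- 2. Clec4g, of sinusoidal endothelium, differed by -0.99 (SE 0.39) and Kdr, a VEGF receptor gene, by -0.50 (SE 0.18). Both had a limma adjusted p of 1. Their unadjusted limma p was under 0.05, as it was for 236 of all 13379 genes in the lower direction. The endothelial list averaged 7.31 and 7.47 in the wild-type mice, 6.55 on Cnot3+/- 1 and 7.39 on Cnot3+/- 2. Its low array was Cnot3+/- 1, and that of the ribosomal proteins was Cnot3+/- 2. Whether cell content bears on the ribosomal protein values was not tested. The excess of 3′ over 5′ log2 signal in the Actb controls was 1.46 on wild-type 1, the lowest of the arrays, and 1.49 to 1.60 on the others. For Gapdh it was 0.11 on wild-type 1 and 0.19 to 0.31 on the others. The part of these measures in the ribosomal protein values was not tested.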

How the data were processed

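Total RNA from 4 livers was labelled as biotin cRNA and hybridised to Affymetrix arrays, per the labels' protocols. The authors deposited log2 values summarised by RMA, as the submitters' processing notes record. RMA corrects background, normalizes across arrays and compresses differences of dim probe sets. No source used here gives its version. The log2 scale was taken from the values, 1.85 to 14.96, and 0 columns were left unused.

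Symbols came from the platform's annotation, which can be old: 34958 probe sets had 1 symbol, 932 several and 9211 none. Probe sets in the lowest 40% of mean value were left out. The rest, 27060, entered a two-sided limma fit (lmFit, then eBayes; version 3.58.1 under R 4.3.3) without covariates, with 2 residual and 3.41 prior degrees of freedom. Benjamini-Hochberg adjustment ran over all of them, with a threshold of 0.05. The script was tested on simulated data with added differences larger than that of any member. That run does not show whether differences as small as those of the members would be called. The p-values set each difference against the spread between these few mice, moderated by the spread over all probe sets tested.

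Members, lists and rules were chosen with earlier results of these data known. Named are the 10 largest differences in each direction (non-overlapping first), fixed structural members and paralogs, members near Cnot3 and the 2 largest of each other list and direction. Other lists used 1 probe set per gene, the brightest, avoiding _x_at and _s_at where possible. Non-overlap was counted over the 4 arrays. Sequences are from the RefSeq table of GRCm38.p6.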

Additional observations from a re-analysis of the deposited data

How the results depend on the processing

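No ribosomal protein probe set passed under any alternative run: another normalization, filter, choice of probe set, variance model, the replicate block or an array left out. The median difference lay between -0.13 and -0.096 under the alternatives that kept all 4 arrays, and between -0.25 and -0.0016 with 1 array left out. The share of members lower lay between 52.2% (without wild-type 1) and 92.4% (without wild-type 2). Labelled numbers do not establish pairs here. The difference between arrays 1 and 2 correlated at 0.17 between the 2 genotypes, over the 27060 probe sets tested. Whether equal numbers form pairs cannot be told from that value. With replicate number as a block, 0 members and 0 of all probe sets passed, against 2 of all without it, and the smallest member adjusted p was 0.827.

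Near-zero differences turned in direction. Quantile normalization gave -0.0036 for Rps6 and -0.00011 for Rpl7l1 (1452049_at), and equal array medians gave -0.0089 for Rps29 (1415833_x_at) and -0.0069 for Rps10 (1436384_at). The cause was not tested.
With 1 array left out, differences crossed 0 in 18 named probe sets: Rpl11 (1417615_a_at) from -0.30 to 0.031, Rpl22 (1448398_s_at) from -0.40 to 0.025, Rpl7 (1415979_x_at) from -0.27 to 0.076, Rpl7 (1426162_a_at) from -0.31 to 0.058, Rpl7l1 (1426386_at) from -0.15 to 0.047, Rpl7l1 (1452049_at) from -0.055 to 0.14, Rplp0 (1419441_at) from -0.25 to 0.061, Rplp2 (1415879_a_at) from -0.00020 to 0.13, Rps10 (1436384_at) from -0.024 to 0.064, Rps20 (1456373_x_at) from -0.12 to 0.21, Rps20 (1456436_x_at) from -0.071 to 0.17, Rps24 (1455195_at) from -0.14 to 0.35, Rps27 (1460699_at) from -0.17 to 0.043, Rps4l (1452730_at) from -0.98 to 0.0013, Rps6 (1416142_at) from -0.28 to 0.37, Rps9 (1426958_at) from -0.097 to 0.049, Rps9 (1433689_s_at) from -0.19 to 0.062 and Rpsa (1448245_at) from -0.18 to 0.029.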
